A study of Mus musculus with 12 samples.

Results

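The IL-1 family receptors of T cells were followed on 6 Affymetrix probe sets of 5 mouse genes, out of 45101 probe sets on the array. They were chosen by gene, from a list that pairs probe sets with genes: 1419532_AT for Il1r2, 1448950_AT for Il1r1, 1421628_AT for Il18r1, 1421291_AT and 1456545_AT for Il18rap, and 1422317_A_AT for Il1rl1, the gene of ST2. The rule itself uses no measured value. RNA came from 12 samples of mouse spleen CD4+ CD25+ T cells, 3 in each of 4 groups, and the study asks which transcripts depend on IL-2 in regulatory T cells (Treg cells) and in effector T cells. Transgenic Treg cells, whose IL-2 receptor is defective, came from IL-2 receptor beta-deficient mice that carry the C57BL/6-2Rbeta-WT/thymus transgene. These were pools of 4, 8 and 3 mice aged 33, 13 and 7 to 16 weeks. C57BL/6 Treg cells were pools of 8, 8 and 15 normal mice aged 12, 12 and 10 weeks. Both kinds of Treg cell were sorted directly from spleen, without culture. Transgenic effector cells came from 1 mouse per array of the same receptor-deficient transgenic line, aged 15, 14 and 9 weeks, and C57BL/6 effector cells from 1 normal mouse per array, aged 10, 14 and 14 weeks. All effector cells were CD4+ CD25hi cells sorted after whole spleen cells had been cultured for 48 hours with anti-CD3, an antibody against a chain of the T cell receptor complex. The sources used here do not name the promoter of the transgene. The purification label of transgenic effector sample 3 describes fresh spleen cells, against its title and source name, so the differences of Il1r2 and Il18r1 that use it are also given without it. The labelled cell types and the loss of Il2rb could not be checked against marker probe sets, because no table used here names other probe sets, and sorted purity was 99 to 99.9% where the labels give it.

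The signalling receptors of the IL-1 family carry a TIR domain inside the cell, through which they activate NF-kB when their cytokine and an accessory chain are bound. IL-1 acts through the signalling receptor encoded by Il1r1, while the product of Il1r2 lacks that domain, binds IL-1 without signalling and so works as a decoy. IL-18 is bound by the Il18r1 chain and signals together with the Il18rap chain, and IL-33 is bound by ST2. These receptors are known on T cells for tuning their response to inflammation, ST2 being carried by a share of Treg cells in tissues, IL-18 receptors by T helper 1 cells and some Treg cells, and the decoy receptor by activated Treg cells. In the RefSeq annotation of GRCm38.p6 all 5 genes lie in a single interval of chromosome 1, in the order Il1r2, Il1r1, Il1rl1, Il18r1 and Il18rap. Of the 6 protein-coding genes in this interval, Il1rl2 is the only other.

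Il1r2 and Il18r1 differed between the strains, Il1r2 in effector and Il18r1 in Treg cells. Il1r2 was 4.61-fold higher in transgenic than in C57BL/6 effector cells, and Il18r1 was 2.72-fold lower in transgenic than in C57BL/6 Treg cells. The Il18r1 difference did not pass the test under 2 of the 22 alternative settings that tested it, and its effector values were too low to show a fall. Il18rap was low in both kinds of Treg cell, with lower values in transgenic ones, a difference that rests on 1 of its 2 probe sets. Il1r1 and Il1rl1 read low on all 12 arrays. The values are GCRMA values on the log2 scale, as deposited by the authors, and only probe sets with at least 3 arrays at a log2 value of 5 or higher were tested. By this filter 2 of the 6 probe sets were tested, Il1r2, with 11 arrays at 5 or above, and Il18r1, with 6. The other 4 had no array at 5 or above, and their values are given without a call unless the fit without a filter is named. Tests were made in limma with 1 model of the 4 group means, and a probe set is called changed at a Benjamini-Hochberg adjusted p under 0.05 over all 18271 tested probe sets. In bulk RNA, fewer cells with a transcript and less of it per cell cannot be told apart.

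**Figure D1:**
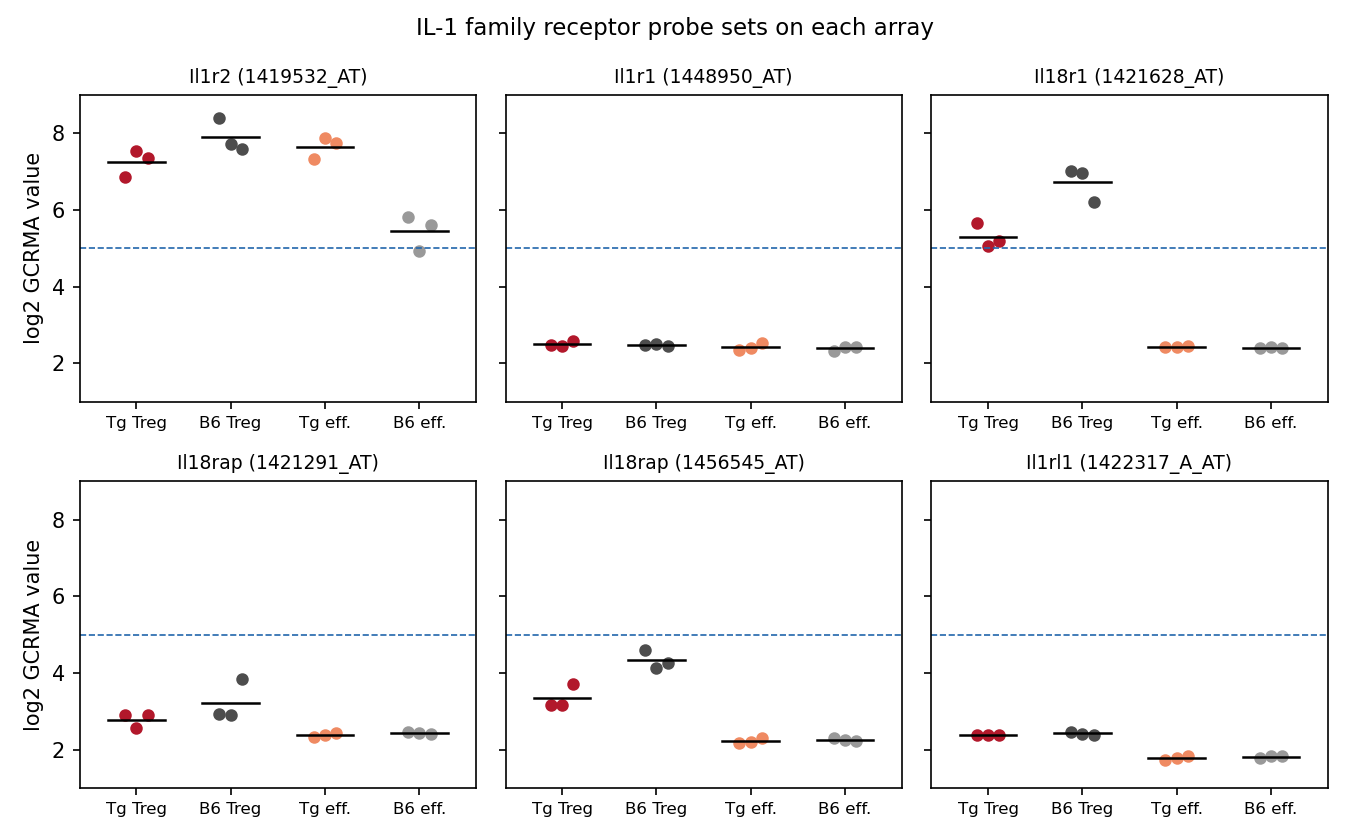
Log2 GCRMA value (vertical axis) of the 6 receptor probe sets on each array, for transgenic (Tg) Treg, C57BL/6 (B6) Treg, transgenic effector (eff.) and C57BL/6 effector cells. Points are arrays, bars are group means (n = 3), and the dashed line marks the log2 value of 5 used for testing. Il1r2 averages 7.25 to 7.90 in 3 groups and 5.45 in C57BL/6 effector cells, Il18r1 is above 5 on the Treg arrays and at 2.40 to 2.46 on the effector arrays, and the other 4 probe sets stay below 5.

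Il1r2, the decoy receptor, read 7.33, 7.88 and 7.75 on the transgenic effector arrays, against 5.82, 4.92 and 5.62 on the C57BL/6 effector arrays. Every transgenic array lay above every C57BL/6 array, as the higher group did in 12.7% of all tested probe sets. The means were 7.65 ± 0.29 in transgenic and 5.45 ± 0.47 in C57BL/6 effector cells (log2, SD, n = 3), a log2 difference of 2.20 (standard error 0.31, limma adjusted p = 0.00266). The rise was called under each of the 21 alternative settings tried for it, at log2 differences of 1.85 to 2.39 (limma adjusted p of 0.000318 to 0.0322). It was 2.15 without transgenic effector array 3 (limma adjusted p = 0.00945). Transgenic effector arrays 2 and 3 differed from the other effector arrays in 8 probe sets that split all arrays into the same 2 states. With that state as a covariate the Il1r2 difference was 2.20 (limma adjusted p = 0.0279), and transgenic effector array 1, which shares the state of the C57BL/6 arrays, lay 1.88 above their mean. The Il1r2 rise was the 1 call in effector cells among the 6 receptor probe sets, of which 2 were tested. There 2.99% of all tested probe sets were called and 1.92% were called higher. The fit without a filter called 0.770% of 45037 probe sets in effector cells, and again only Il1r2 of the 6. Of the 18271 tested probe sets, 72 had a strain difference in effector cells at least this large in the same direction, and 56 of these were called.

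In Treg cells Il1r2 read 6.85, 7.55 and 7.36 on the transgenic arrays, against 8.41, 7.71 and 7.59 on the C57BL/6 arrays. The highest transgenic value lay just below the lowest C57BL/6 value, by a gap much smaller than the spread within either group, and 7.18% of all tested probe sets had transgenic Treg arrays below C57BL/6 Treg arrays without overlap. The means were 7.25 ± 0.36 in transgenic and 7.90 ± 0.45 in C57BL/6 Treg cells (log2, SD, n = 3). The log2 difference of -0.65, with a 95% confidence interval of -1.32 to 0.024, did not pass the test (limma adjusted p = 0.567), nor did it under any of the 23 alternative settings. With the hybridization spike level of the Treg arrays as a covariate it was -0.26.

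The strain difference of Il1r2 itself differed between the populations. The Treg change minus the effector change was -2.85 on the log2 scale, with a 95% confidence interval of -3.80 to -1.90 (limma adjusted p = 0.00581), and it was called under all 22 alternative settings, at -3.06 to -2.47. Without transgenic effector array 3 it was -2.80 (limma adjusted p = 0.0141). This test called 2.26% of all tested probe sets, and 1.52% of all tested probe sets were called with a negative difference. Of the 6 receptor probe sets it called 2, Il1r2 and Il18r1, the only 2 that were tested. Of the 277 probe sets called with a negative difference, 229 had, as Il1r2 did, a Treg strain difference below 0 and an effector strain difference above 0. Picking probe sets by a negative difference favours such signs. The Treg fall was called in 83 of the 277 and the effector rise in 170. Both were called in 12 of all tested probe sets. Il1r2 is not among these, as its Treg fall was not called. Without a filter 0.648% of all probe sets were called for the Treg change minus the effector change, Il1r2 being the receptor among them. The same arrays can be read the other way round, as Treg against effector cells in each strain. Treg cells had 5.46-fold more Il1r2 signal than effector cells in C57BL/6 mice, a log2 difference of 2.45 (limma adjusted p = 2.12e-05). In transgenic mice the log2 difference was -0.40, with a 95% confidence interval of -1.07 to 0.27 (limma adjusted p = 0.262), and the arrays of both populations overlapped. Without transgenic effector array 3 this difference was -0.35 (limma adjusted p = 0.391). In order of level, C57BL/6 Treg, transgenic effector and transgenic Treg cells overlapped with their neighbours, and C57BL/6 effector cells lay apart below them. Both this order and the Treg against effector differences cross the populations, whose arrays also differed in scale and in provider codes.

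**Figure D2:**
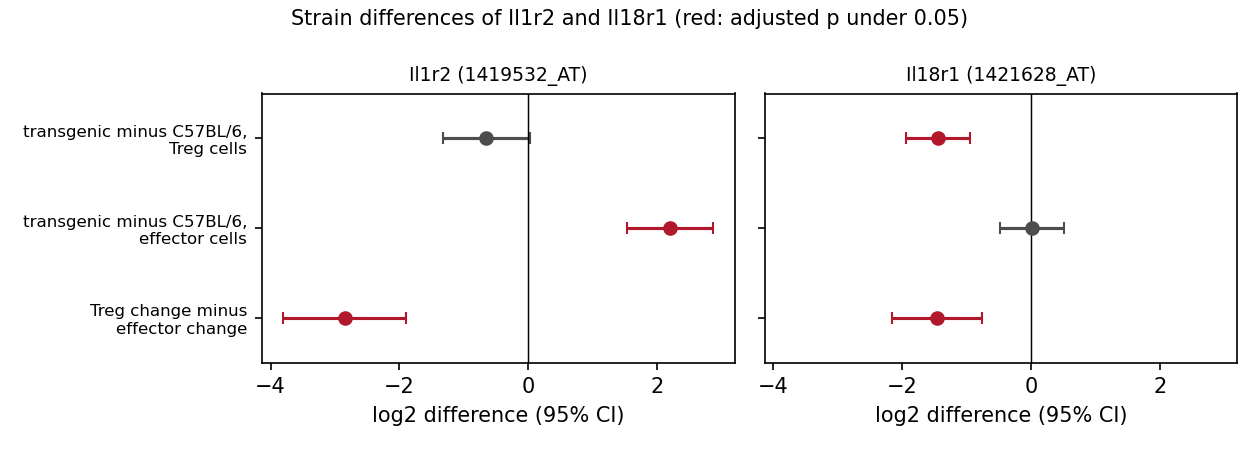
Log2 differences of Il1r2 and Il18r1 (horizontal axis, with 95% confidence intervals from limma) for transgenic minus C57BL/6 Treg cells, transgenic minus C57BL/6 effector cells, and the Treg change minus the effector change (n = 3 arrays per group). The intervals use a variance per probe set that all groups share. Red marks an adjusted p under 0.05 over all tested probe sets: Il1r2 passes in effector cells (2.20) and Il18r1 in Treg cells (-1.44), and both differences between the populations pass (-2.85 and -1.46), that of Il18r1 with effector arrays at 2.40 to 2.46.

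The RefSeq promoter window of Il1r2 (GRCm38.p6, chr1:40085843-40086142, plus strand, 250 bases before to 50 after the start site) is shown because STAT5, the factor that IL-2 receptor signalling activates, binds DNA at the palindrome TTCNNNGAA. Capitals mark the match, TTCAAGGAA, whose first base lies at -111 from the start site.
Il1r2: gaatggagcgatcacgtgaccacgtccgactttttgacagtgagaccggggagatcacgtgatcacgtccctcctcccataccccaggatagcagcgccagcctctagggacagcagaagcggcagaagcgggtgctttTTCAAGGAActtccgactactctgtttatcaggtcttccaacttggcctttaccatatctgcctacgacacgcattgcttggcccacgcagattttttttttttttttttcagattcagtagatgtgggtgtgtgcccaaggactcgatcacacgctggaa
The motif was searched on both strands, with overlaps allowed, after the sequences had been read. It is present in 8.3% of the 32851 promoter windows of 300 bases in the table and in 2 of the 9 windows listed for the 5 receptor genes. The match is a description of the sequence and not evidence of binding.

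Il1r1, the signalling receptor for IL-1, read 2.46 to 2.59 on the transgenic Treg arrays, 2.46 to 2.51 on the C57BL/6 Treg arrays, 2.35 to 2.53 on the transgenic effector arrays and 2.32 to 2.43 on the C57BL/6 effector arrays. The strains overlapped in both populations. The strain differences were 0.03 in Treg and 0.04 in effector cells on the log2 scale, and the fit without a filter called neither (limma adjusted p = 0.842 and 1). At values this low, a transcript below what the array resolves cannot be told from its absence.

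Il18r1, the chain that binds IL-18, read 5.65, 5.05 and 5.18 on the transgenic Treg arrays, against 7.03, 6.97 and 6.21 on the C57BL/6 Treg arrays. All 3 transgenic arrays lay below all 3 C57BL/6 arrays, as the lower group did in 7.18% of all tested probe sets. The means were 5.29 ± 0.32 in transgenic and 6.74 ± 0.46 in C57BL/6 Treg cells (log2, SD, n = 3), a log2 difference of -1.44 (standard error 0.23, limma adjusted p = 0.00837). This was the 1 call in Treg cells among the 6 receptor probe sets, of which 2 were tested. There 1.19% of all tested probe sets were called and 0.805% were called lower. Of all tested probe sets, 153 had a strain difference in Treg cells at least this far below 0, and 91 of these were called.

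The direction of the Il18r1 difference in Treg cells was the same under all 23 alternative settings, at -1.72 to -1.05, and it was called in each of the 12 fits that left out 1 array (limma adjusted p of 0.000871 to 0.0481). It was not called in the 6 Treg arrays alone, where the difference was the same and its standard error was 0.30 (limma adjusted p = 0.196). In the fit to all 12 arrays the variance also drew on the effector arrays, whose SDs for Il18r1 were 0.022 and 0.011. Among the C57BL/6 Treg arrays, Il18r1 was lowest on array 3, which also had the lowest hybridization spike level (10.93, against 12.92 and 12.02 on arrays 1 and 2, and 10.88 to 11.16 on the transgenic Treg arrays). With the spike level as a covariate the log2 difference was -1.05 (limma adjusted p = 0.0375). By the state described above, C57BL/6 Treg array 3 shared the state of all 3 transgenic Treg arrays. Against that array alone the transgenic mean of Il18r1 differed by -0.92 on the log2 scale, with no replicate check. With the state as a covariate the difference was -1.18 (limma adjusted p = 0.0897). Within the 4 Treg arrays whose provider codes are consecutive, 2 of each strain, the difference was -1.65.

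In effector cells Il18r1 read 2.42, 2.42 and 2.46 on the transgenic arrays, against 2.40, 2.43 and 2.41 on the C57BL/6 arrays. The strains overlapped, with a log2 difference of 0.02 (95% confidence interval -0.48 to 0.52, limma adjusted p = 1), and 0.007 without transgenic effector array 3. That interval uses the variance shared with the Treg arrays. In the effector arrays alone the standard error was 0.04. The effector values of Il18r1 lie below the median of all probe sets on the effector arrays (3.15 to 3.27), where a fall could go unseen. The Treg change minus the effector change was -1.46 (95% confidence interval -2.16 to -0.76, limma adjusted p = 0.0403). With the effector arrays this low, that difference largely restates the Treg change and does not show that the populations responded differently. The call was lost in 10 of the 12 fits that left out 1 array, in which the adjusted p ran from 0.00486 to 0.115, and held in the fits without C57BL/6 Treg array 3 or without transgenic Treg array 1. Without transgenic effector array 3 the difference was -1.45 (limma adjusted p = 0.0706). Il18r1 averaged 5.29 in Treg and 2.43 in effector cells of transgenic mice, and 6.74 in Treg and 2.41 in effector cells of C57BL/6 mice. No test is read from this, since the probe set entered the tested set through its Treg arrays alone and the effector values are too low for a fold. Among all tested probe sets 70.0% were called between the populations in transgenic and 73.8% in C57BL/6 mice, and 30.0% and 31.7% were called higher in Treg cells, so a call between the populations, such as that of Il1r2 in C57BL/6 mice, is common. Culture, activation, the number of mice per array and the range of provider codes went with population, and their effects cannot be told apart. The scale differed as well, the lowest value on an array being 0.942 to 0.957 among Treg and 0.296 to 0.326 among effector samples.

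**Figure D3:**
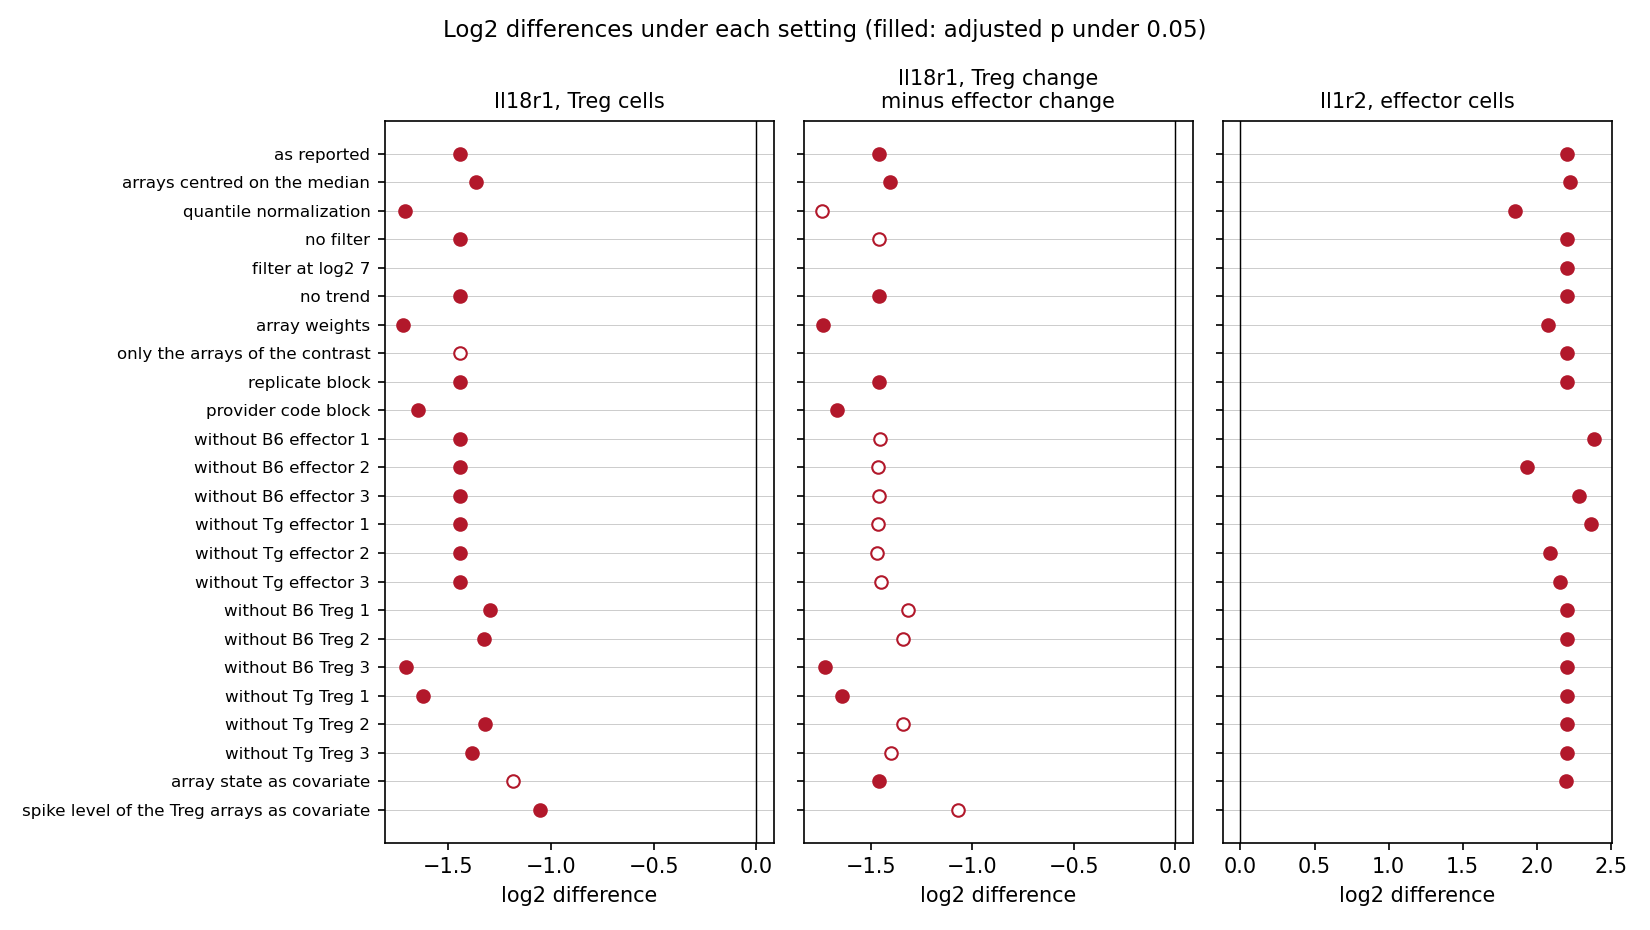
Log2 difference (horizontal axis) of Il18r1 in Treg cells, of its Treg change minus its effector change, and of Il1r2 in effector cells, under each setting (rows; B6 is C57BL/6, Tg is transgenic, and a number names the array left out). Filled points have an adjusted p under 0.05, and a row without a point was not tested. All points keep their sign; Il1r2 is filled throughout, Il18r1 in Treg cells is open in 2 settings, and the Il18r1 difference between the populations is open in 13 of 21.

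The RefSeq table lists 3 promoter windows for Il18r1. The most downstream of them (GRCm38.p6, chr1:40465756-40466055, plus strand) is shown because it holds 2 matches to TTCNNNGAA, in capitals, TTCTGGGAA at -219 and TTCCCAGAA at -152 from its start site.
Il18r1: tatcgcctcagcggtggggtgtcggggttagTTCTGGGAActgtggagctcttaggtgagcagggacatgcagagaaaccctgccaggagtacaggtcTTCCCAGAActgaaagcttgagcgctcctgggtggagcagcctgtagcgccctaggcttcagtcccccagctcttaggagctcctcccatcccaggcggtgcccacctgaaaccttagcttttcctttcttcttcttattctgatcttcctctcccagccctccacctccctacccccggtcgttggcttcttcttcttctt
The other 2 windows of Il18r1 overlap each other and hold no TTCNNNGAA, but both contain 1 copy of the form with a spacer longer by a base, TTCNNNNGAA, as TTCTTTTGAA. That longer form is present in 6.95% of all windows. A gene with several windows has more chances of a match, and whether Il18r1 transcripts of these cells start at this window was not measured.

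Il18rap, the accessory chain that IL-18 needs to signal, was read by 2 probe sets, both below a log2 value of 5 on every array. Probe set 1456545_AT read 3.15, 3.15 and 3.72 on the transgenic Treg arrays, against 4.61, 4.13 and 4.27 on the C57BL/6 Treg arrays, without overlap. The means were 3.34 ± 0.33 in transgenic and 4.34 ± 0.25 in C57BL/6 Treg cells (log2, SD, n = 3), a log2 difference of -0.997. In the fit without a filter it was called lower (limma adjusted p = 0.015), where 0.535% of 45037 probe sets were called and 0.369% were called lower. The variance in that fit also drew on the effector arrays. Their SDs for this probe set were 0.066 in transgenic and 0.048 in C57BL/6 samples. A test in the Treg arrays alone was not made for this probe set. Among the 25661 probe sets below 5 on all 12 arrays, 29, or 0.113%, had a strain difference in Treg cells at least this far below 0. With 1 array left out the difference ran from -1.19 to -0.86. Probe set 1421291_AT read 2.89, 2.55 and 2.90 on the transgenic Treg arrays, against 2.92, 2.90 and 3.83 on the C57BL/6 Treg arrays. Its log2 difference of -0.44 was not called without a filter (limma adjusted p = 0.82) and was -0.13 without C57BL/6 Treg array 3. So the strain difference of Il18rap rests on 1 of its probe sets, and no other background correction was tried.

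In effector cells the Il18rap probe set 1456545_AT read 2.16 to 2.29 in transgenic and 2.22 to 2.31 in C57BL/6 samples, and 1421291_AT read 2.34 to 2.43 in transgenic and 2.41 to 2.45 in C57BL/6 samples. The strains overlapped on both probe sets. The Treg change minus the effector change of 1456545_AT was -0.96 and did not pass the test without a filter (limma adjusted p = 0.1). Counted over all 6 receptor probe sets, the transgenic Treg arrays lay below the C57BL/6 Treg arrays without overlap in 4, Il1r2, Il18r1 and both of Il18rap, against 5.40% of the 45037 probe sets. For 1421291_AT the gap was too small to show at 2 decimals. The 2 probe sets of Il18rap share their gene, and the Treg strain differences of Il1r2 and 1421291_AT were not called. The receptor probe sets were also chosen with earlier results of these data known, so no result is read from this count.

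The promoter window of Il18rap (GRCm38.p6, chr1:40515112-40515411, plus strand) is shown beside that of Il18r1 because both chains form the receptor for IL-18. It holds no TTCNNNGAA and 1 copy of TTCNNNNGAA in capitals, TTCATCAGAA at -167.
Il18rap: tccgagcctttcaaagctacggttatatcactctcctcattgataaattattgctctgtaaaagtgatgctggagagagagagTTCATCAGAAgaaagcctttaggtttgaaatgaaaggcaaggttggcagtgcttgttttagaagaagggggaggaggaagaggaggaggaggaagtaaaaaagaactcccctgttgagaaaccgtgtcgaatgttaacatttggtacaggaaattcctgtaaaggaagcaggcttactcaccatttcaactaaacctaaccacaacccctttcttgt
No match to either motif lies in the windows of Il1r1 and Il1rl1, 2 for each gene.

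Il1rl1, which encodes the IL-33 receptor chain ST2, read 2.38 to 2.39 on the transgenic Treg arrays, 2.39 to 2.46 on the C57BL/6 Treg arrays, 1.74 to 1.83 on the transgenic effector arrays and 1.77 to 1.82 on the C57BL/6 effector arrays. The strains overlapped in both populations, with log2 differences of -0.03 in Treg and -0.02 in effector cells (limma adjusted p without a filter of 0.833 and 1). Both Treg groups lay above both effector groups, by 0.61 in transgenic mice (0.63 without transgenic effector array 3) and 0.62 in C57BL/6 mice, and the fit without a filter called both (limma adjusted p = 4.78e-09 and 4.34e-09). That fit called 69.7% of all probe sets between the populations in transgenic and 70.8% in C57BL/6 mice. Of the 25661 probe sets below 5 on all arrays, 6.62% in transgenic and 6.82% in C57BL/6 mice differed at least as far in the same direction. The lowest value on an array was 0.942 to 0.957 among Treg and 0.296 to 0.326 among effector samples, so the bottom of the scale itself differed. An ST2 difference between the strains was not detectable at this level.

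**Figure D4:**
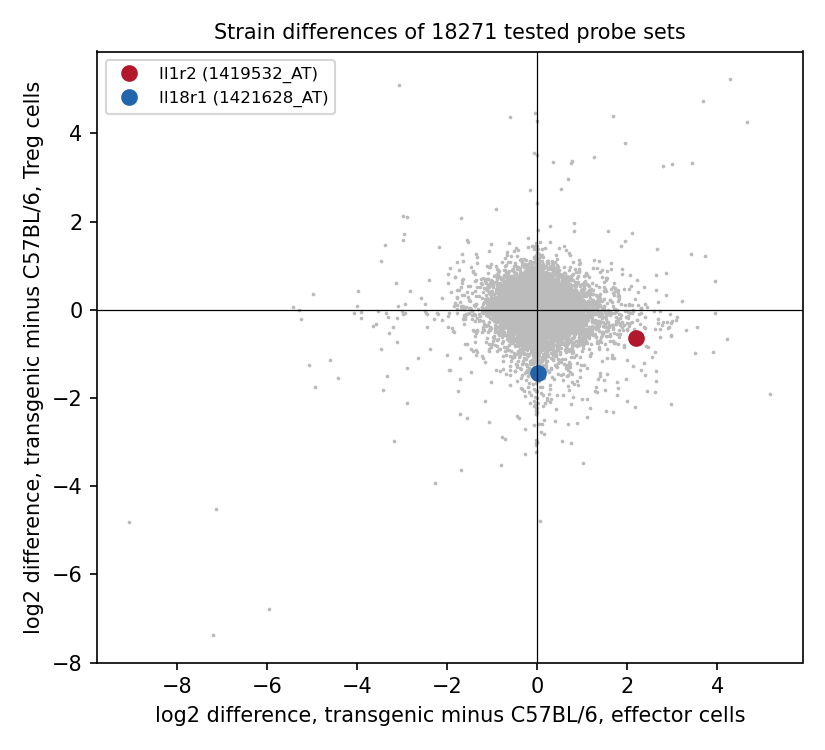
Log2 difference between transgenic and C57BL/6 effector cells (horizontal axis) and Treg cells (vertical axis) of the 18271 tested probe sets (grey points, n = 3 arrays per group), with Il1r2 in red and Il18r1 in blue. Il1r2 lies at 2.20 in effector and -0.65 in Treg cells, and Il18r1 at 0.02 in effector and -1.44 in Treg cells.

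The median strain difference of all tested probe sets was 0.028 in Treg and -0.005 in effector cells, so the 2 called receptors moved against arrays that were centred close to 0. The probe sets whose values, centred on their own mean, lay nearest to those of Il18r1 over the 12 arrays were 1423825_AT and 1425293_A_AT, at root mean square distances of 0.186 and 0.221 on the log2 scale. In Treg cells their strain differences were -1.17 and -1.59, and those in effector cells -0.08 and -0.01. The nearest to Il1r2 were 1456464_X_AT and 1423103_AT, at distances of 0.359 and 0.362, with differences of 1.90 and 1.79 in effector and -0.45 and -0.27 in Treg cells. These 4 probe sets were picked by their values on the same arrays, so like strain differences follow from the choice. They are not paired with genes here. Pairs of arrays within a group had correlations of 0.923 to 0.992 over tested probe sets. The differences of signal between the 3′ and 5′ control probe sets of beta-actin were 0.50 to 0.68 on the transgenic Treg arrays and 0.56 to 0.88 on the C57BL/6 Treg arrays, and 0.36 to 0.82 and 0.41 to 0.80 on the transgenic and C57BL/6 effector arrays, so they overlapped between the strains.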

How the data were processed

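The authors deposited log2 values, 1 per probe set and array, made with GCRMA, which corrects background, normalizes and summarizes probes, per the submitters' processing notes, which name no version. Per the labels' protocols, total RNA went through a single amplification by in vitro transcription. Of 45101 probe sets, 64 controls were left out, and 18271, those with at least 3 arrays at a log2 value of 5 or higher, were tested in 1 model of 4 group means on all 12 arrays (limma 3.58.1 in R 4.3.3, with a variance trend). The strain contrast (transgenic minus C57BL/6) was taken per population, with the difference of both, and Treg minus effector per strain. The series' design text calls the samples of each group biological replicates, and the number of arrays limits the precision. Sample numbers follow the titles; for 2 effector samples (C57BL/6 number 3, transgenic number 2) the description gives number 1 instead, so effector numbers, and results of the replicate block that rest on them, are uncertain. The model was tested on simulated data.

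The receptor probe sets and the gene lists were chosen with earlier results of these data known. The rule was to name all 6 receptor probe sets, called pathway genes and the nearest probe sets by pattern. The 16 gene lists of pathway members and cell type markers were not analysed here, since no table used here pairs other probe sets with genes, and 2 of the 3 nearest probe sets are printed. Same-numbered Treg arrays of both strains deviated together (correlations of 0.583, 0.102 and 0.511, above the minimum of 0.1). Transgenic Treg array 2 correlated slightly more with C57BL/6 Treg array 3 (0.114) than with array 2 (0.102). The other differently numbered Treg arrays had correlations of -0.541 to 0.0502. Treg numbers were taken as pairs on the evidence of the values alone, and only for the replicate block, an alternative setting. The main tests used no pairs. Same-numbered effector arrays did not deviate together (0.211, -0.338 and -0.342). The replicate block used the effector numbers all the same. In the Treg against effector contrasts it joined arrays of both populations by number. Alternatives were other normalizations, filters, variance models, sample sets, blocks and covariates, and leaving out each array; the array state and spike covariates were added after seeing the data. Promoter sequences and gene order are from RefSeq tables of GRCm38.p6, which matched all 5 genes. Figures were drawn with matplotlib 3.10.9.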

Additional observations from a re-analysis of the deposited data

Results flagged for a closer look

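The strain difference of Il1r2 differed between Treg and effector cells by a test of the difference itself, -2.85 on the log2 scale (limma adjusted p = 0.00581, n = 3 arrays per group). In effector cells 3 of 3 transgenic samples were higher than every C57BL/6 sample, as in 12.7% of tested probe sets. The Treg difference by itself was not called (limma adjusted p = 0.567), its groups being apart by a narrow gap, as 7.18% of tested probe sets were in that direction. The strain difference of Il18r1 also differed, by -1.46 (limma adjusted p = 0.0403), but its effector arrays read 2.40 to 2.46, so that difference largely restates the Treg change, and the call was lost in 10 of the 12 fits that left out 1 array.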

How the results depend on the processing

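No difference of Il1r2 or Il18r1 changed its sign under any setting in which it was tested. Of the 6 receptor probe sets, 1 was called between the strains in Treg cells, against 2 without a filter (Il18r1 and 1 probe set of Il18rap) and 0 with a filter at log2 7, which removes Il18r1, with only the arrays of the contrast, and with the array state as a covariate. For the difference between the populations 2 were called, 1 under quantile normalization, no filter, the filter at log2 7 or the spike covariate, and 1 to 2 with 1 array left out; Il1r2 was called in each of these, and Il18r1 was the call lost. Between Treg and effector cells, 2 were called in C57BL/6 mice (5 without a filter, 1 with a filter at log2 7) and 1 in transgenic mice (3 without a filter, 0 with a filter at log2 7). The call in transgenic mice and 1 of the 2 in C57BL/6 mice were of Il18r1, from which no test is read, as given above. Of all tested probe sets, 73.8% were called in C57BL/6 and 70.0% in transgenic mice, and 70.8% and 69.7% without a filter. The filters changed the number of receptor probe sets tested; for the other settings the cause was not tested. The count in effector cells was 1 throughout. With the replicate number as a block, the Il18r1 difference in Treg cells was -1.44 (limma adjusted p = 0.021) and its difference between the populations -1.46 (limma adjusted p = 0.0451); the block changed no call of a receptor. Over all tested probe sets, counts ran from 74 (only the Treg arrays) to 1232 (array weights), against 218, for strain in Treg cells, from 220 (array state) to 3033 (array weights), against 547, in effector cells, from 214 (without C57BL/6 Treg array 2) to 2529 (array weights), against 413, for the difference, and to 31870 and 31397 without a filter, against 13475 and 12789, between populations in C57BL/6 and transgenic mice. Covariates for Xist and Y-linked probe sets were not run, since no table names them. No other background correction was tried, which limits what the 4 receptor probe sets below log2 5 can show.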
